A study of Mus musculus with 12 samples.

Results

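Metallothioneins and genes induced by glucocorticoids were followed through RNA-seq libraries of mouse hippocampus from 4 groups of mice, with 3 libraries each. The genes are the metallothioneins Mt1, Mt2 and Mt3 and 7 genes known to respond to glucocorticoids, Fkbp5, Sgk1, Tsc22d3, Pdk4, Plin4, Cdkn1a and Zbtb16, taken by symbol from a count table of 54427 genes. These 10 genes, and the other gene lists used below, were chosen with earlier results of these data known. All 10 passed the filter on low counts, which kept 17227 genes.

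The groups were 5xFAD;Ulk1OV mice (labelled as carrying the FAD transgene together with Ulk1 overexpression), 5xFAD mice, Ulk1OV mice and WT mice. 5xFAD mice are an Alzheimer's disease model in which human transgenes with familial mutations, APP among them, are driven by the neuronal Thy1 promoter, and ULK1 is the kinase that starts autophagy. The labels do not say what drives the added Ulk1, nor the strain, sex or age of the mice. They call the samples primary cells in one field, although the protocol describes hippocampal tissue. They also do not say whether each library came from a separate mouse. A p-value here therefore sets a group difference against the spread of these libraries, and may not hold for mice.

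Metallothioneins are small, cysteine-rich proteins that bind zinc and copper. The transcription factor MTF1 turns on Mt1 and Mt2 through metal response elements when free zinc rises, and glucocorticoids and oxidative stress also raise them. In brain Mt1 and Mt2 are mainly astrocytic, while Mt3 is a brain-enriched form that responds little to metals. Glucocorticoids act through the glucocorticoid and mineralocorticoid receptors, which bind glucocorticoid response elements, and the hippocampus is rich in both receptors. Among the targets, Fkbp5 encodes a co-chaperone that lowers receptor affinity and Tsc22d3 encodes the anti-inflammatory protein GILZ. Sgk1 encodes a kinase that regulates ion channels, Pdk4 an inhibitor of pyruvate dehydrogenase, Plin4 a lipid droplet coat protein, Cdkn1a the cell cycle inhibitor p21 and Zbtb16 the zinc finger protein PLZF.

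Totals ran between 16149992 and 18547132 counts per library. App, which collects reads of the APP transgene, stood at 2201 to 2667 CPM (read counts scaled to a common library total by TMM) in 5 of the 6 libraries labelled with 5xFAD and at 1241 to 1493 CPM in the 6 others. App was at 1310 CPM in the library labelled 5xFAD;Ulk1OV replicate 3, which goes against that label. This library also had 954 CPM of Prnp, against 2067 to 2510 CPM in the other 5xFAD libraries, and 0 counts of the pseudogene Lamr1-ps1, against 184 to 304. Ulk1 averaged 93.6 ± 7.4 CPM in 5xFAD;Ulk1OV and 73.2 ± 11.7 CPM in 5xFAD libraries, and 91.4 ± 9.3 CPM in Ulk1OV and 77.8 ± 3.9 CPM in WT libraries (SD, n = 3 each), and was not called in either comparison (edgeR adjusted p = 0.144 and 0.229). All 10 markers each of neurons, astrocytes, oligodendrocytes and microglia passed the filter on low counts. Choroid plexus markers summed to 5934 CPM in Ulk1OV replicate 1 and 8468 CPM in WT replicate 3, while the other 10 libraries lay between 208 and 613 CPM. Where leaving these libraries out changed a call or a direction among the 10 genes, values, ranges or counts without them are given too. For the other gene lists the numbers of genes called without them are given.

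Per kilobase of annotated exon, Mt3 and Mt1 were by far the most abundant of the 10 mRNAs, at means of 424 and 417 RPKM (CPM per kilobase) over the 12 libraries. Their order held in 8 of the 12 libraries, so these levels did not differ beyond their spread. Sgk1 followed at 59.2 RPKM and Tsc22d3 at 38.7 RPKM, and each step of the order below Mt1 and down to Zbtb16 at 9.69 RPKM held in all 12 libraries. Fkbp5 at 7.95 RPKM, Pdk4 at 7.12 RPKM, Plin4 at 4.23 RPKM, Cdkn1a at 3.50 RPKM and Mt2 at 2.53 RPKM came last. Neighbours among these last genes changed places in 3 to 6 libraries, apart from Zbtb16 over Fkbp5, an order that held in 11. The length used for Mt1, 1246 bases, takes in a retained intron, so its level per kilobase is a low estimate.

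On GRCm38 (GENCODE M21), Mt1 lies at chr8:94179082-94180327 and Mt3 at chr8:94152607-94154146, both on the plus strand. Fkbp5 (chr17:28399094-28517527, minus strand), Plin4 (chr17:56100591-56109803, minus strand) and Cdkn1a (chr17:29090976-29100727, plus strand) share chromosome 17. Sgk1 lies at chr10:21882184-21999903 (plus strand), and on the minus strand Tsc22d3 lies at chrX:140539528-140600659, Pdk4 at chr6:5483351-5496309 and Zbtb16 at chr9:48654297-48836222. All 10 are annotated as protein-coding.

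Mt2 was read from only 14 to 34 counts per library. On GRCm38, 432 of its 588 exonic bases (chr8:94172664-94173568, plus strand) are shared with the antisense gene Gm45774, which had 4 to 15 counts. Without knowing whether the authors' counting used strand, reads of these genes cannot be told apart, and the level of Mt2 is uncertain. Mt4, the fourth gene of the cluster, had 0 to 4 counts and was not tested. A shorter overlap with an antisense transcript covers 273 of the 3553 exonic bases of Cdkn1a, and 17 of the 5777 exonic bases of Plin4 are shared with Hdgfl2 on the opposite strand.

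The metallothioneins lie side by side on chromosome 8, and the 250 bases before their RefSeq start sites (GRCm38.p6) are shown because the genes differ there in the motifs by which metals and glucocorticoids are known to act. Capitals mark matches to the metal response element, searched as TGCACNC and TGCGCNC, and to a relaxed glucocorticoid response element, searched as GNACA and TGTNC with any 3 bases between them, on both strands.
Mt1 (chr8:94178839-94179088, plus strand): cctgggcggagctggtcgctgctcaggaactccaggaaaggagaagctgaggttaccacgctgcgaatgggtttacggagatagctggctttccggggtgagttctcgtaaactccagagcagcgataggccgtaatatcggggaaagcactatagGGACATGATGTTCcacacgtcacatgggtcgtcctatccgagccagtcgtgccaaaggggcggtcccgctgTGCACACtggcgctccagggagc
Mt2 (chr8:94172368-94172617, plus strand): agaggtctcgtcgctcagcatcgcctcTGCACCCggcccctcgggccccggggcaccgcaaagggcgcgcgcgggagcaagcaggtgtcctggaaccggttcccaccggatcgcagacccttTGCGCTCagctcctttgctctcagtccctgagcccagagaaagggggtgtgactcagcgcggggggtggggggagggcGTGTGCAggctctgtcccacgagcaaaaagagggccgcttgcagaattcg
Mt3 (chr8:94152357-94152606, plus strand): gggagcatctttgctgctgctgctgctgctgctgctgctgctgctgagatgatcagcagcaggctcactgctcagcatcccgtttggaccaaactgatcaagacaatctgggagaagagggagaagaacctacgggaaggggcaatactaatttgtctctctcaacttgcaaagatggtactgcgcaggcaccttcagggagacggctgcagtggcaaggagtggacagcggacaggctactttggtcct
Mt1 held the relaxed glucocorticoid motif from -94 to -82 of its start site and 1 metal response element from -23 to -17. Mt2 held 3 metal response elements, beginning at -223, -128 and -50, and Mt3 held no match. Of the 32851 start sites in the table, 21.4% had either form of the metal response element in a window of this length, and 0.387% had the relaxed glucocorticoid motif. A match describes these letters and is not evidence of binding.

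Ulk1OV hippocampus had more Mt1 and Mt3 mRNA than WT hippocampus. Mt1 had 511, 783 and 721 CPM in Ulk1OV libraries (replicates 1, 2 and 3), against 362, 434 and 461 CPM in WT libraries. Every Ulk1OV library lay above every WT library, and the fitted difference was 0.68 ± 0.16 on the log2 scale (SE), a 1.60-fold rise (edgeR quasi-likelihood test, Benjamini-Hochberg adjusted p = 0.0325). Mt3 had 464, 675 and 660 CPM in Ulk1OV libraries, against 345, 339 and 393 CPM in WT libraries. These groups did not overlap either, and Mt3 rose 1.67-fold (log2 0.74 ± 0.14, edgeR adjusted p = 0.0222). In both genes Ulk1OV replicate 1 was the lowest of its group. Mt2, with 1.37, 1.71 and 1.53 CPM in Ulk1OV and 1.94, 1.80 and 1.08 CPM in WT libraries, was not called (log2 -0.06 ± 0.32, edgeR adjusted p = 0.927).

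These 2 rising genes were the only ones of the 10 called in this comparison, in which 5.17% of all tested genes were called, 2.14% as rising and 3.04% as falling. At an unadjusted p of 0.05, 6 of the 10 genes and 24.1% of all tested genes passed. Both kept their call without Ulk1OV replicate 1 and WT replicate 3, the libraries with choroid plexus markers, where 58 genes were called in all. Both lost it without Ulk1OV replicate 3 (adjusted p = 0.154 for Mt1 and 0.131 for Mt3), without WT replicate 1 (0.128 and 0.0976) and without WT replicate 2 (0.0893 and 0.0747), fits in which edgeR called 0 genes of any kind. Mt1 alone lost it without Ulk1OV replicate 2 (0.0662).

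Beside these rises, astrocyte markers summed to 7520 to 7938 CPM in Ulk1OV and 6563 to 7439 CPM in WT libraries, with 0 of 10 called and a median log2 difference of 0.08. Meningeal fibroblast markers summed to 135 to 164 CPM in Ulk1OV and 234 to 343 CPM in WT libraries, with 5 of 8 called as falling, and 2 of 10 endothelial and 2 of 7 mural cell markers fell too. So did 1 of 10 neuron and 1 of 5 red blood cell markers. Mitochondrially encoded genes took 6.40% to 8.76% of counts in Ulk1OV and 5.05% to 5.42% in WT libraries. The part of these differences in the metallothionein result was not tested. In bulk RNA, a change in the number of cells of a type and a change in RNA per cell cannot be told apart.

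None of the 7 glucocorticoid-induced genes was called between Ulk1OV and WT, yet Plin4, Cdkn1a, Fkbp5 and Zbtb16 were each higher in every Ulk1OV library than in every WT library. Plin4 had 54.4, 53.9 and 33.3 CPM in Ulk1OV libraries, against 6.05, 6.32 and 26.8 CPM in WT libraries. WT replicates 1 and 2 were low and close together while WT replicate 3 came nearer to the Ulk1OV range, and the fitted difference was 3.61-fold with a wide error (log2 1.85 ± 0.71, edgeR adjusted p = 0.130). Zbtb16 had 78.2, 66.6 and 60.0 CPM in Ulk1OV libraries, against 43.8, 39.98 and 47.5 CPM in WT libraries (log2 0.64 ± 0.26, edgeR adjusted p = 0.144). Fkbp5 had 98.4, 100.2 and 82.2 CPM in Ulk1OV libraries, against 71.1, 51.8 and 69.8 CPM in WT libraries (log2 0.54 ± 0.22, edgeR adjusted p = 0.147). Cdkn1a had 16.9, 20.2 and 13.5 CPM in Ulk1OV libraries, against 7.46, 7.74 and 12.8 CPM in WT libraries (log2 0.85 ± 0.39, edgeR adjusted p = 0.200). With Mt1 and Mt3 this made 6 of the 10 genes higher without overlap in Ulk1OV, and 0 lower, where 15% of all tested genes were higher without overlap and 14.5% lower. Without a filter on low counts edgeR called Plin4, Zbtb16, Fkbp5, Cdkn1a and Tsc22d3 as rising, with 2079 genes called in all against 891. That fit gave Plin4 nearly the same difference with a far smaller error (1.86 ± 0.15, adjusted p = 9.13e-34). Fkbp5 and Zbtb16 each had an error of 0.11. Such errors do not reflect the spread of Plin4 over the WT libraries, so these calls add no evidence. Zbtb16 was also called with only the 6 libraries of the comparison (adjusted p = 0.0284), and Fkbp5 without 5xFAD replicate 1 (adjusted p = 0.0404). Without both WT replicate 3 and the library labelled 5xFAD;Ulk1OV replicate 3, Plin4 (2.92 ± 0.44, adjusted p = 0.0107) and Tsc22d3 (0.86 ± 0.19, adjusted p = 0.0304) were called.

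**Figure D1:**
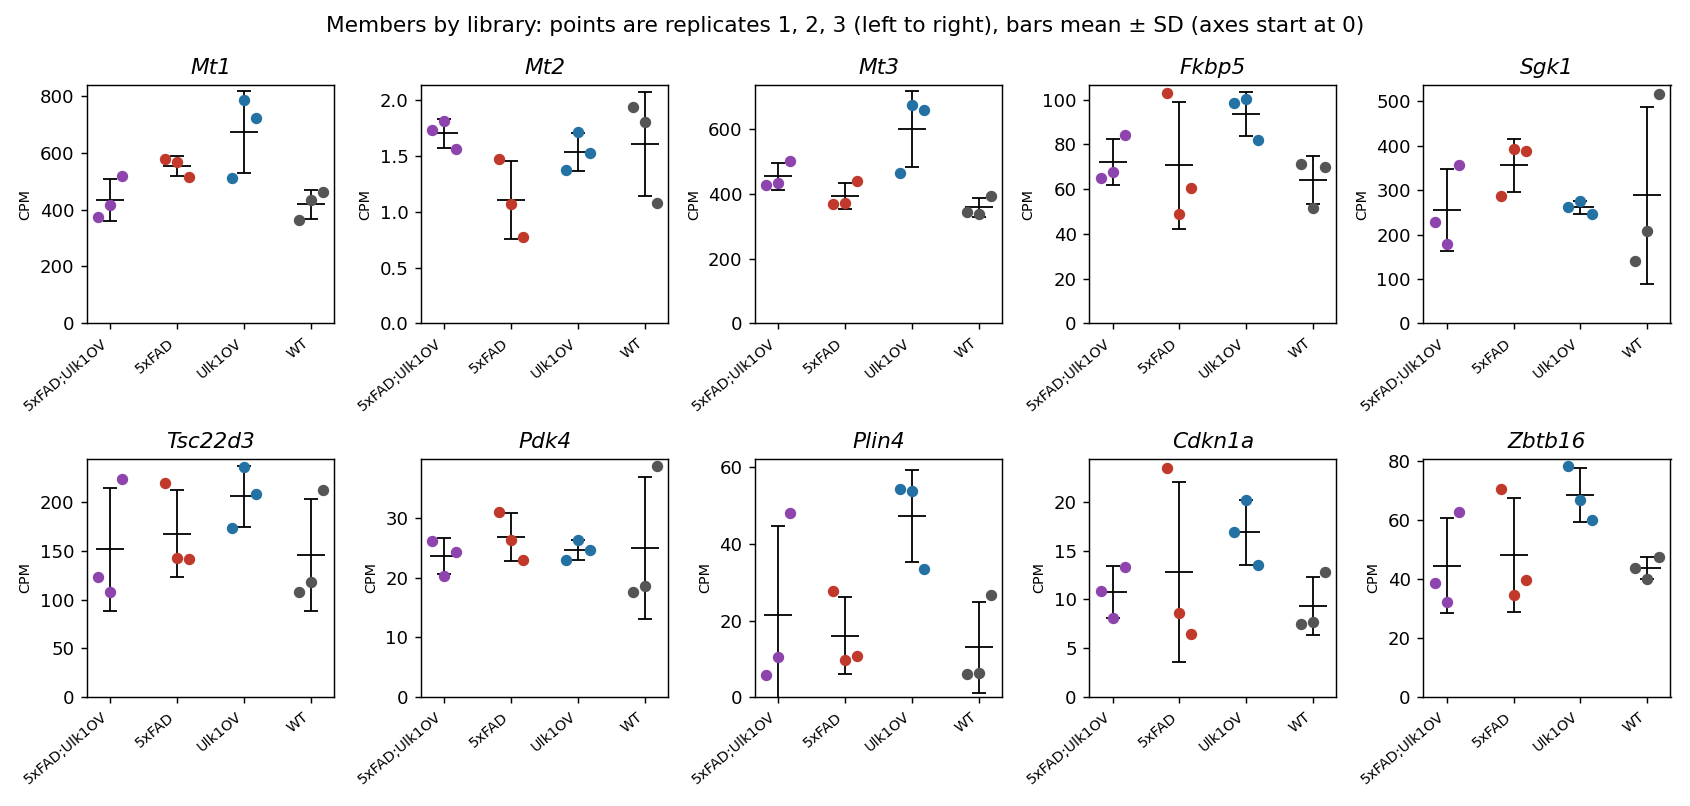
CPM of each of the 10 genes (vertical axis, from 0, with its own range per gene) in the 5xFAD;Ulk1OV, 5xFAD, Ulk1OV and WT groups, with points for replicates 1, 2 and 3 and bars for the mean ± SD of 3 libraries, cut at 0 where the SD exceeds the mean. The 3 Ulk1OV points of Plin4 lie between 33.3 and 54.4 CPM, while each other group has 1 high library and 2 low ones.

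Sgk1, Pdk4 and Tsc22d3 overlapped between the same groups, in each case through WT replicate 3. Sgk1 had 263, 275 and 247 CPM in Ulk1OV libraries, against 142, 208 and 516 CPM in WT libraries (log2 -0.14 ± 0.36, edgeR adjusted p = 0.845). The 3 Ulk1OV libraries lay close together, between the pair of low WT libraries and the high one. Pdk4 had 23.0, 26.3 and 24.6 CPM in Ulk1OV and 17.7, 18.7 and 38.7 CPM in WT libraries (log2 -0.02 ± 0.24, adjusted p = 0.965). Tsc22d3 had 174, 236 and 209 CPM in Ulk1OV and 108, 118 and 212 CPM in WT libraries (log2 0.50 ± 0.29, adjusted p = 0.318). Without WT replicate 3 the log2 difference was 0.58 ± 0.25 for Sgk1 and 0.44 ± 0.15 for Pdk4, neither of them called (adjusted p = 0.181 and 0.114). That library stood apart by its choroid plexus markers and had 13989 CPM of oligodendrocyte markers, against 8438 and 9989 CPM in the other WT libraries. Their part in its high Sgk1 and Pdk4 was not tested.

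Promoters of Sgk1 and Cdkn1a are shown because, the metallothioneins aside, they alone held one of the motifs searched among the 17 RefSeq start sites of the 9 genes other than Zbtb16. Capitals mark the full glucocorticoid response element, searched as AGAACA and TGTTCT with any 3 bases between them, in Sgk1, and in Cdkn1a a pair of CATG cores spaced as in a p53 response element, searched with any 6 bases between them, on both strands.
Sgk1, start site 5 (chr10:21993640-21993889, plus strand): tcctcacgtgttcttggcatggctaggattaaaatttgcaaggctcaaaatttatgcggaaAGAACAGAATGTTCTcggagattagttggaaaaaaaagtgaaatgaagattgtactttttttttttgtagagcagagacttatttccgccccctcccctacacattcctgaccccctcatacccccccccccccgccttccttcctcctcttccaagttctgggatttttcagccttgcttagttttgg
Cdkn1a, start site 1 (chr17:29090729-29090978, plus strand): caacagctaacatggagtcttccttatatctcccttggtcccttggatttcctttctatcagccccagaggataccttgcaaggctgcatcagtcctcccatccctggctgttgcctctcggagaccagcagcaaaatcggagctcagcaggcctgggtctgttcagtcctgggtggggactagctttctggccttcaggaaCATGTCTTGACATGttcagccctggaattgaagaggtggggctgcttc
The Sgk1 match ran from -189 to -175 and contains the relaxed form as well. It was 1 of 3 such windows among the 32851 start sites (0.00913%). The Cdkn1a match ran from -48 to -35, and 0.49% of windows held that motif. The windows of Fkbp5, Tsc22d3, Pdk4 and Plin4, and the other windows of Sgk1 and Cdkn1a, held no match.

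On the 5xFAD background, Mt1 did not show this rise. Mt1 had 372, 416 and 516 CPM in 5xFAD;Ulk1OV libraries, against 576, 568 and 514 CPM in 5xFAD libraries. The groups overlapped at the library labelled 5xFAD;Ulk1OV replicate 3, and the difference of -0.35 ± 0.16 on the log2 scale was not called (edgeR adjusted p = 0.274), nor was the value of -0.47 without that library. Mt3 had 428, 433 and 502 CPM in 5xFAD;Ulk1OV libraries, against 370, 371 and 440 CPM in 5xFAD libraries (log2 0.21 ± 0.14, edgeR adjusted p = 0.456). Mt2 was higher without overlap in 5xFAD;Ulk1OV, with 1.73, 1.81 and 1.56 CPM, against 1.47, 1.07 and 0.772 CPM in 5xFAD libraries, at 14 to 34 counts (log2 0.62 ± 0.32, edgeR adjusted p = 0.336). In this comparison 0 of the 10 genes were called, 1 was higher without overlap and 0 lower, where 0.0464% of all tested genes were called, 10.7% were higher without overlap and 11.5% lower. At an unadjusted p of 0.05 Mt1 and 17.4% of all tested genes passed, and DESeq2 called 721 genes and none of the 10.

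The difference between the Ulk1OV effects on the 2 backgrounds was tested as an interaction, the log2 change of 5xFAD;Ulk1OV against 5xFAD minus that of Ulk1OV against WT. Mt1 was called, at -1.03 ± 0.22 on the log2 scale (edgeR adjusted p = 0.0124), and stayed called in each of the 12 fits that left out 1 library, with log2 values between -1.19 and -0.88. The library labelled 5xFAD;Ulk1OV replicate 3 had the highest Mt1 of its group. Mt1 was the 1 gene of the 10 called, where 12.8% of all tested genes were called, 6.8% as rising and 5.96% as falling, and at an unadjusted p of 0.05 Mt1 and Mt3 passed with 29.4% of all tested genes. Mt3 missed the threshold at -0.53 ± 0.19 (adjusted p = 0.0817), and the 7 glucocorticoid-induced genes all had negative interaction values, between -1.44 ± 0.99 for Plin4 and -0.16 ± 0.34 for Pdk4, with adjusted p-values of 0.184 or more. Without the library labelled 5xFAD;Ulk1OV replicate 3, Mt1 was at -1.14, and Plin4 (-2.81 ± 0.82, adjusted p = 0.0397) and Zbtb16 (-1.06 ± 0.32, adjusted p = 0.0437) were called too, while Mt3 was not (-0.59 ± 0.20, adjusted p = 0.0687). Mt3 was called without Ulk1OV replicate 1 and WT replicate 3 (-0.76 ± 0.15, adjusted p = 0.0210). In the same test 5 of 8 meningeal fibroblast markers were called above 0, with a median log2 value of 2.51. So were 4 of 10 endothelial (median 1.09), 2 of 7 mural cell (0.66) and 1 of 5 red blood cell markers (1.22). Of 10 neuron and of 10 microglia markers, 1 each was called above 0 and 1 below. Of 10 astrocyte markers 0 were called (-0.19). The part of these differences in the Mt1 interaction was not tested.

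The glucocorticoid-induced genes were split within both 5xFAD groups. In 5xFAD;Ulk1OV libraries Plin4 had 5.76, 10.4 and 48.1 CPM, against 27.6, 9.77 and 10.8 CPM in 5xFAD libraries (log2 0.41 ± 0.70, edgeR adjusted p = 0.812). The high values were the library labelled 5xFAD;Ulk1OV replicate 3 in one group and 5xFAD replicate 1 in the other. Tsc22d3 had 124, 107 and 224 CPM in 5xFAD;Ulk1OV and 219, 143 and 141 CPM in 5xFAD libraries (log2 -0.15 ± 0.29, adjusted p = 0.844). Zbtb16 had 38.8, 32.0 and 62.7 CPM in 5xFAD;Ulk1OV and 70.3, 34.5 and 39.8 CPM in 5xFAD libraries (log2 -0.11 ± 0.26, adjusted p = 0.864). The same libraries were the high ones in both genes. Fkbp5 had 65.2, 67.6 and 84.1 CPM in 5xFAD;Ulk1OV and 102.9, 49.0 and 60.3 CPM in 5xFAD libraries (log2 0.03 ± 0.22, adjusted p = 0.960). Cdkn1a had 10.8, 8.05 and 13.4 CPM in 5xFAD;Ulk1OV and 23.4, 8.65 and 6.45 CPM in 5xFAD libraries (log2 -0.26 ± 0.39, adjusted p = 0.784). Sgk1 departed from this in 5xFAD mice, where replicate 1 was its lowest library. It had 229, 180 and 357 CPM in 5xFAD;Ulk1OV and 287, 393 and 388 CPM in 5xFAD libraries (log2 -0.48 ± 0.36, adjusted p = 0.528). Oligodendrocyte markers in the same libraries summed to 9433, 11052 and 14787 CPM in 5xFAD;Ulk1OV and 7945, 13357 and 14986 CPM in 5xFAD, and their part in the Sgk1 values was not tested. Pdk4 varied least, with 26.2, 20.4 and 24.4 CPM in 5xFAD;Ulk1OV and 31.0, 26.4 and 22.9 CPM in 5xFAD libraries (log2 -0.18 ± 0.24, adjusted p = 0.751). Without the library labelled 5xFAD;Ulk1OV replicate 3 all 7 genes were below 0, between -0.97 ± 0.62 for Plin4 (adjusted p = 0.443) and -0.07 ± 0.24 for Fkbp5 (adjusted p = 0.905), and 0 were called.

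Between 5xFAD and WT libraries 0 of the 10 genes were called, and edgeR called 0% of all tested genes, while 12.4% (and Mt1 among the 10) passed an unadjusted p of 0.05, and 136 genes were called by DESeq2, none of them among the 10. The lowest edgeR adjusted p of any gene was 0.111, so App, Prnp and Lamr1-ps1 were missed too. App averaged 2526 CPM in 5xFAD and 1415 CPM in WT libraries. A lack of calls here thus does not show that the groups were alike. Without the library labelled 5xFAD;Ulk1OV replicate 3 edgeR called 3 genes, 0 of them among the 10. Mt1, at 576, 568 and 514 CPM in 5xFAD libraries against 362, 434 and 461 CPM in WT libraries, was higher in every 5xFAD library (log2 0.40 ± 0.16, edgeR unadjusted p = 0.0236, adjusted p = 0.327). It was the 1 gene higher without overlap, and 0 were lower, where 10.5% of all tested genes were higher and 9.05% lower. Mt3 differed by 0.13 ± 0.14 on the log2 scale (adjusted p = 0.722) and Mt2 by -0.54 ± 0.32 (adjusted p = 0.518). The 7 glucocorticoid-induced genes had differences between 0.10 ± 0.24 for Pdk4 and 0.46 ± 0.39 for Cdkn1a, all of them above 0 with a median of 0.20, against 0.0028 for all tested genes. Without 5xFAD replicate 1, Fkbp5, Tsc22d3, Pdk4, Plin4, Cdkn1a and Zbtb16 fell below 0 in the fit and Sgk1 alone stayed above it. Without WT replicate 3 all 7 were above 0, with Sgk1 at 1.03 ± 0.25 (adjusted p = 0.248) and Plin4 at 1.38 ± 0.74 (adjusted p = 0.491), and 0 were called.

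**Figure D2:**
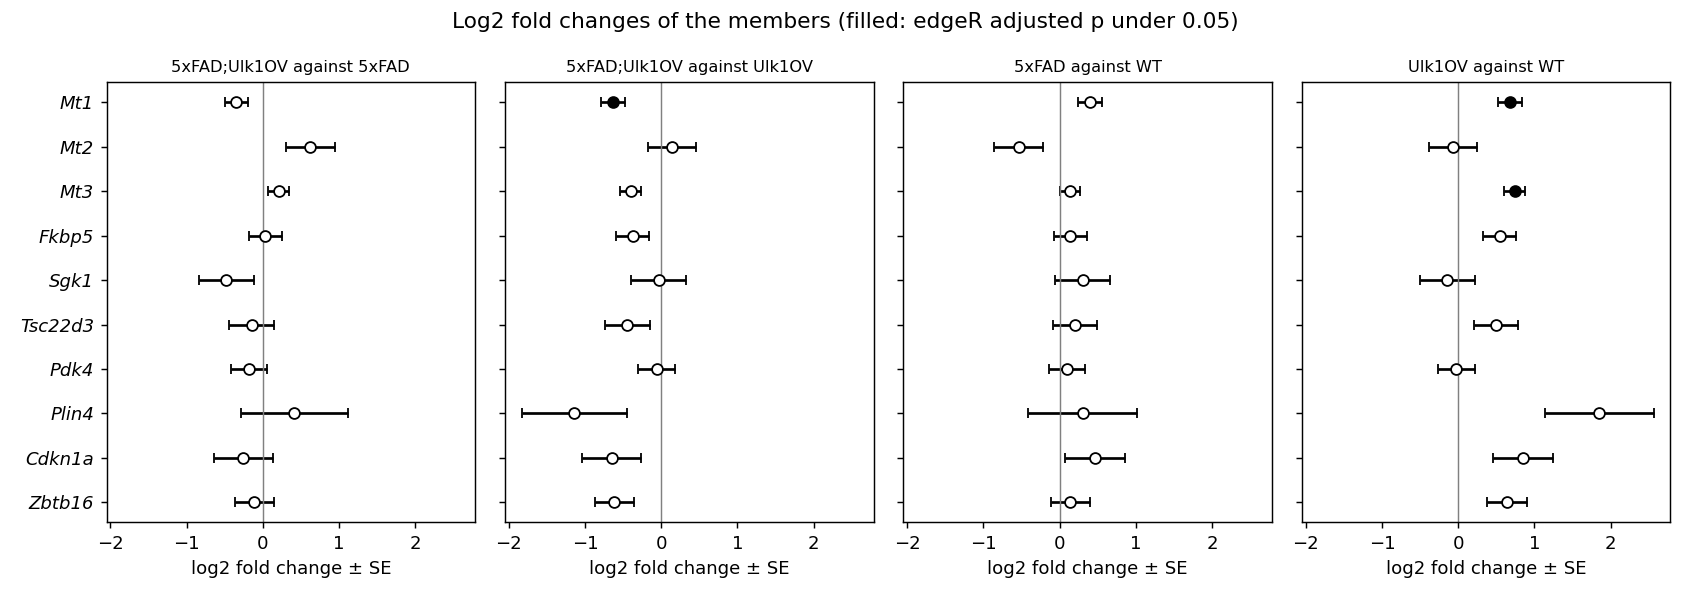
Log2 fold change of each gene (horizontal axis, ± SE from edgeR) in 4 comparisons, filled where the adjusted p was under 0.05. Mt1 and Mt3 are filled at 0.68 and 0.74 for Ulk1OV against WT, and Mt1 at -0.63 for 5xFAD;Ulk1OV against Ulk1OV.

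Between the groups labelled with Ulk1 overexpression, 5xFAD;Ulk1OV hippocampus had less Mt1 than Ulk1OV hippocampus. With 372, 416 and 516 CPM in 5xFAD;Ulk1OV against 511, 783 and 721 CPM in Ulk1OV libraries, Mt1 fell by 0.63 ± 0.16 on the log2 scale (edgeR adjusted p = 0.0347). The groups overlapped narrowly, at 516 CPM in the library labelled 5xFAD;Ulk1OV replicate 3 and 511 CPM in Ulk1OV replicate 1. Without the library labelled 5xFAD;Ulk1OV replicate 3 the Mt1 difference was -0.75, and Plin4 (-2.53 ± 0.64, adjusted p = 0.0312) and Zbtb16 (-0.93 ± 0.24, adjusted p = 0.0328) were called as falling too. The Mt1 call was lost without 5xFAD;Ulk1OV replicate 1 (adjusted p = 0.149) or replicate 2 (0.138), Ulk1OV replicate 2 (0.0768) or replicate 3 (0.153), or WT replicate 2 (0.0509), which enters through the shared estimate of the spread, and with only the 6 libraries of the comparison (0.0809). With all 12 libraries Mt1 was the 1 gene of the 10 called, where 6.1% of all tested genes were called, 3.67% as rising and 2.43% as falling. At an unadjusted p of 0.05, 3 of the 10 (Mt1, Mt3 and Zbtb16) and 24.8% of all tested genes passed.

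In the same comparison Mt3 differed by -0.40 ± 0.14 (edgeR adjusted p = 0.0870), and it was called once trends in GC content and length had been removed (-0.71 ± 0.14, adjusted p = 0.0284), or Ulk1OV replicate 1 and WT replicate 3 left out (-0.55 ± 0.11, adjusted p = 0.0496). Cdkn1a was the 1 gene lower without overlap, and 0 were higher, where 13.4% of all tested genes were lower and 14.2% higher (-0.65 ± 0.39, adjusted p = 0.318). Plin4 differed by -1.14 ± 0.69 (adjusted p = 0.327), Zbtb16 by -0.62 ± 0.26 (0.154), Tsc22d3 by -0.44 ± 0.29 (0.367) and Fkbp5 by -0.37 ± 0.22 (0.310). Sgk1 and Pdk4 were near 0, at -0.04 ± 0.36 and -0.06 ± 0.24. Meningeal fibroblast markers ran the other way, with 4 of 8 called as rising and sums of 158 to 343 CPM in 5xFAD;Ulk1OV and 135 to 164 CPM in Ulk1OV libraries. Endothelial markers summed to 102 to 141 CPM in 5xFAD;Ulk1OV and 80 to 96 CPM in Ulk1OV libraries, and mural cell markers to 126 to 197 CPM in 5xFAD;Ulk1OV and 100.02 to 111 CPM in Ulk1OV libraries, with 1 of 10 and 1 of 7 called as rising. Neuron markers summed to 9087 to 10276 CPM in 5xFAD;Ulk1OV and 10313 to 11099 CPM in Ulk1OV libraries, with 0 of 10 called. Astrocyte markers summed to 6656 to 8207 CPM in 5xFAD;Ulk1OV and 7520 to 7938 CPM in Ulk1OV libraries, with 0 of 10 called and a median log2 difference of -0.15. Of 10 microglia markers 1 rose and 1 fell, and of 5 red blood cell markers 1 rose. Mitochondrially encoded genes took 4.03% to 5.97% of counts in 5xFAD;Ulk1OV and 6.40% to 8.76% in Ulk1OV libraries, and the part of any of these in the Mt1 result was not tested. The 4 comparisons share groups, so their values are not independent of each other.

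The glucocorticoid-induced genes were often high in the same libraries. Counted against each gene's median over the 12 libraries, 6 or 7 of the 7 genes were above it in 5xFAD replicate 1, the library labelled 5xFAD;Ulk1OV replicate 3, Ulk1OV replicates 2 and 3 and WT replicate 3, and 5 were in Ulk1OV replicate 1. In the other 6 libraries 0 to 2 were. The Ulk1OV group was thus the one with all 3 libraries high, and each other group had 1. Choroid plexus markers summed to 208 CPM in 5xFAD replicate 1, 541 CPM in the library labelled 5xFAD;Ulk1OV replicate 3, 520 CPM in Ulk1OV replicate 2 and 305 CPM in Ulk1OV replicate 3, within the range of the low libraries, and were high in Ulk1OV replicate 1 and WT replicate 3. Astrocyte markers summed to 8426 CPM in 5xFAD replicate 1 and 8207 CPM in the library labelled 5xFAD;Ulk1OV replicate 3, the highest sums of the 12 libraries, and to 7520 to 7938 CPM in Ulk1OV libraries. They summed to 6563 CPM in WT replicate 3, and to 6325 to 7760 CPM in the 6 libraries where few of the 7 genes were above their median. The part of astrocyte content in these values was not tested.

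**Figure D3:**
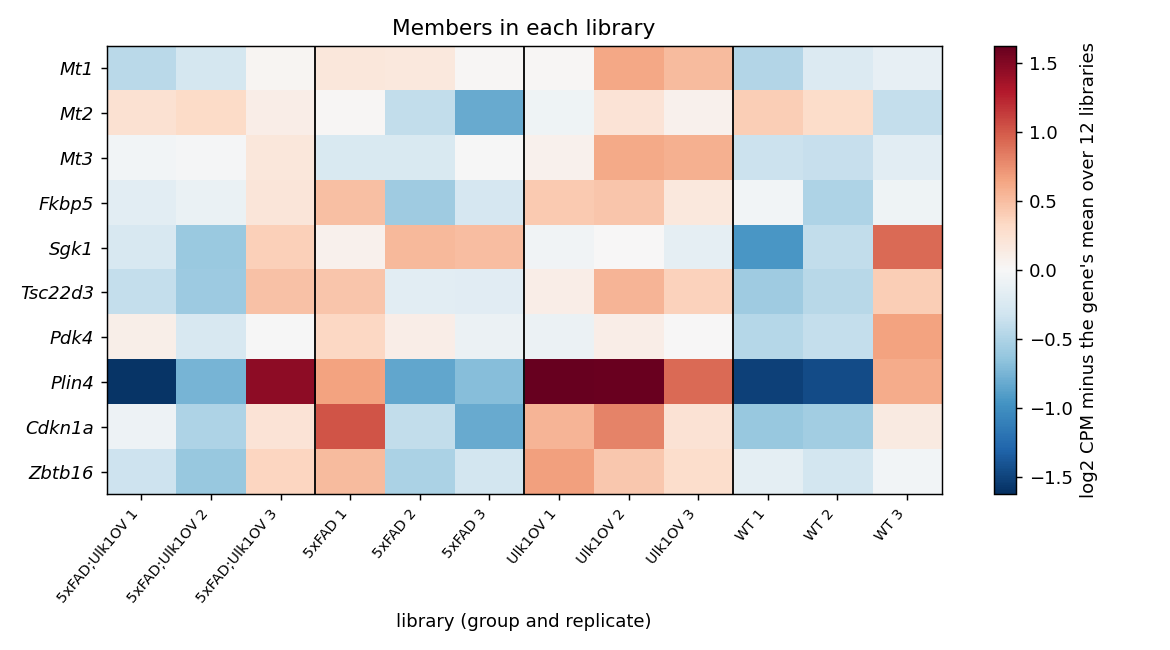
Log2 CPM of each gene minus its mean over the 12 libraries (color), by library, with lines between the groups. Plin4 has the widest range, 9.45-fold between its lowest and highest library, and the columns of 5xFAD replicate 1, the library labelled 5xFAD;Ulk1OV replicate 3 and WT replicate 3 are darker red than the rest of their groups in most of the lower rows.

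The 21 pairs among these 7 genes had Pearson correlations of log2 CPM over the 12 libraries between -0.04 and 0.89, with a median of 0.69, and a median of 0.69 again after the group means were removed. All tested genes had a median correlation of 0.01 with the 7. The values are descriptions, since the 12 points share groups, kit and scaling. Tsc22d3 and Plin4 were among the closest pairs (r = 0.89, Spearman's rho = 0.77, r = 0.89 within groups and 0.90 without the 2 libraries farthest from the median of Tsc22d3). Only 0.0464% of all tested genes had a higher r with Tsc22d3 than Plin4. Here and below, the 2 farthest libraries were picked by the gene named first, so extreme libraries of the other gene could stay in. Fkbp5 and Zbtb16 were as close (r = 0.89, rho = 0.87, 0.86 within groups and 0.86 without the 2 farthest). Taken as a set after the values were seen, Fkbp5, Tsc22d3, Plin4, Cdkn1a and Zbtb16 had 10 pairwise correlations of 0.68 to 0.89. Outside this set, Sgk1 and Pdk4 correlated with each other (r = 0.77, rho = 0.71, 0.76 within groups and 0.46 without the 2 farthest libraries). They were not apart from the set, since Tsc22d3 and Pdk4 had r = 0.69 (rho = 0.69, 0.76 within groups and 0.68 without the 2 farthest). Sgk1 and Tsc22d3 had r = 0.59 (0.70 within groups), and Pdk4 and Cdkn1a 0.57 (0.665 within groups). With Zbtb16, r was lower, at 0.29 for Pdk4 and 0.14 for Sgk1. Fkbp5 and Sgk1 had r = -0.04 (rho = -0.01).

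Mt1 and Mt3 correlated at r = 0.73 (rho = 0.55, 0.75 within groups and 0.51 without the 2 farthest libraries). Over the 12 libraries Mt1 was as close to Tsc22d3 (r = 0.76, rho = 0.80) and Plin4 (r = 0.71, rho = 0.70) as to Mt3. Within groups, r with Mt1 was 0.70 for Tsc22d3 and lower, at 0.53, for Plin4. Of all tested genes, 4.27% had a higher r with Mt1 than Mt3, 3.24% than Tsc22d3 and 5.17% than Plin4. Mt2 followed neither of the other metallothioneins, with r = -0.22 to Mt1 and 0.07 to Mt3, and ran opposite to Sgk1 (r = -0.80, rho = -0.88), a relation that rests on 14 to 34 counts of Mt2 per library.

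**Figure D4:**
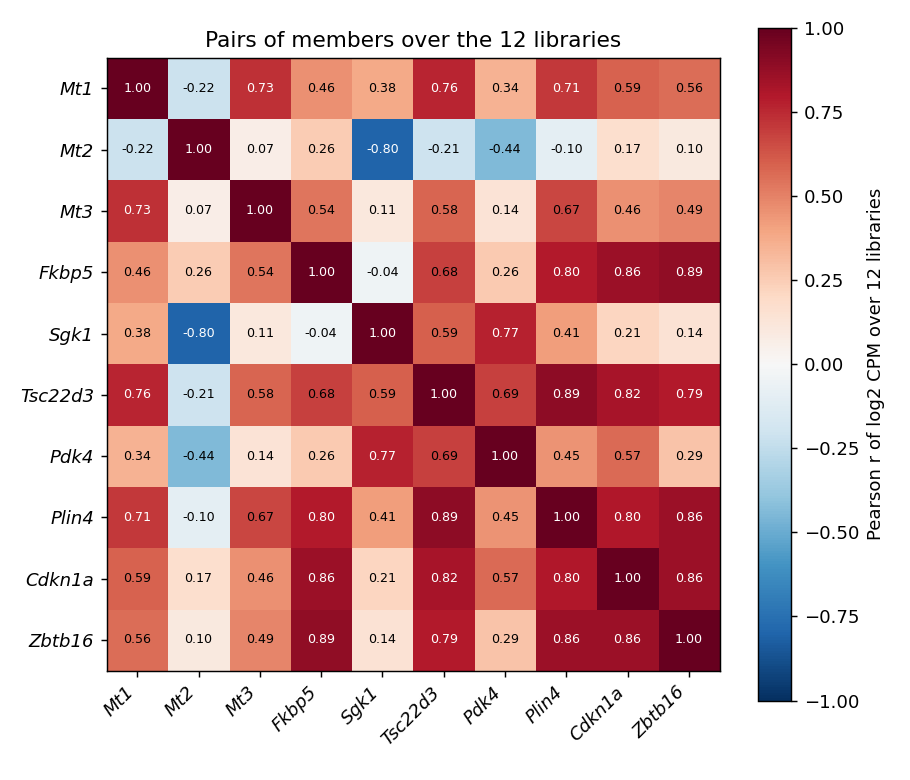
Pearson correlation of log2 CPM over the 12 libraries for each pair of the 10 genes, with r printed in each cell. Fkbp5, Tsc22d3, Plin4, Cdkn1a and Zbtb16 form a block of high values, at 0.68 to 0.89, and Mt2 has low or negative values with most genes. Outside the block, Pdk4 with Sgk1 and Tsc22d3, and Mt1 with Mt3, Tsc22d3 and Plin4, lie in the same range.

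By the same measure, the genes most alike in pattern to each of the 10 were taken from all tested genes. Hif3a was the closest to Zbtb16 (r = 0.96), Nfkbia to Pdk4 (0.84) and Arrdc3 was second for Sgk1 (0.91) and Mfsd2a for Cdkn1a (0.90), and these 4 are on the list of other glucocorticoid-responsive genes. Fkbp5 was closest to Naif1, Zfp389 and Sfpq (0.97, 0.96 and 0.92), Tsc22d3 to Aass, Klf15 and Trp53bp2 (0.94, 0.91 and 0.91), and Plin4 to Cdh19, Bpnt1 and Daam2 (0.96, 0.94 and 0.94). Mt1 was closest to Cdc5l, Map1lc3b and Brd7 (0.95 each), and Mt3 to Chchd3, Rpl14-ps1 and Srp19 (0.94, 0.94 and 0.93). Asah2 and Arid5b (0.92 and 0.90) were the others for Sgk1, Polr3e and Gm43860 (0.82 and 0.81) for Pdk4, Smim3 and Zfp389 (0.92 and 0.90) for Cdkn1a and Kcnn2 and Itsn1 (0.93 each) for Zbtb16, and Mt2 was closest to Suds3, Eid2b and Mrps25 (0.96, 0.93 and 0.93).

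Other glucocorticoid-responsive genes did not move one way in Ulk1OV hippocampus. Of 22 tested, 2 rose and 2 fell against WT, where 2.14% of all tested genes rose and 3.04% fell, and their median log2 difference was 0.04. At an unadjusted p of 0.05, 12 of the 22 passed, with 24.1% of all tested genes. Without the library labelled 5xFAD;Ulk1OV replicate 3, 5 of 23 rose and 3 fell, where 6.72% of all tested genes were called. Fam107a, which encodes an actin-binding stress-response protein, averaged 1018 ± 83 CPM in Ulk1OV and 595 ± 68 CPM in WT libraries (log2 0.77 ± 0.20, edgeR adjusted p = 0.0406). Gjb6, the astrocytic connexin, averaged 157 ± 20 CPM in Ulk1OV and 113 ± 6.1 CPM in WT libraries (0.48 ± 0.12, adjusted p = 0.0374). The mTORC1 inhibitor Ddit4 fell by 0.85 ± 0.19 (adjusted p = 0.0299) and the MAP kinase phosphatase Dusp1 by 0.95 ± 0.22 (adjusted p = 0.0345). Among 11 corticosteroid receptor and chaperone genes Hsp90aa1, the chaperone that holds steroid receptors ready for hormone, rose to 1772 ± 260 CPM in Ulk1OV, against 1180 ± 125 CPM in WT libraries (0.59 ± 0.12, adjusted p = 0.0283), and the other 10 were not called.

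Of 17 genes, 16 zinc transporters and the transcription factor gene Mtf1, 1 changed in Ulk1OV against WT, the zinc importer Slc39a3, which fell to 50.2 ± 7.2 CPM in Ulk1OV, against 75.9 ± 2.2 CPM in WT libraries (log2 -0.60 ± 0.11, edgeR adjusted p = 0.0251). Of 12 NRF2 pathway genes, NRF2's own gene Nfe2l2 and Keap1 included, 1 fell, the cystine transporter Slc7a11 (-0.77 ± 0.16, adjusted p = 0.0271), and of 13 p53 pathway genes, Trp53 included, 1 fell, the antiproliferative gene Btg2 (-1.40 ± 0.26, adjusted p = 0.0222). Of 16 PPAR and fatty acid oxidation genes 0 were called, and Pdk3 had the smallest p (0.24 ± 0.10, adjusted p = 0.150). The medians of these 4 lists lay between -0.07 and 0.06, against 0.0033 for all tested genes. At an unadjusted p of 0.05, 3 zinc genes, 7 NRF2 genes, 3 p53 genes and 1 PPAR gene passed, with 24.1% of all tested genes. So did 5 of the 11 receptor and chaperone genes. Without Ulk1OV replicate 1 and WT replicate 3, 0 of the 8 genes called in these 6 lists were still called (adjusted p between 0.0595 and 0.142), with 0.331% of all tested genes called. All 8 were when the library labelled 5xFAD;Ulk1OV replicate 3 was left out. That fit called 13 genes of these lists, and 6.72% of all tested genes.

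In 5xFAD;Ulk1OV against Ulk1OV libraries, which share the Ulk1OV group with the comparison above, genes of each list were called. Ddit4 rose by 0.91 ± 0.19 on the log2 scale (edgeR adjusted p = 0.0200), Slc39a3 by 0.55 ± 0.11 (0.0198) and Slc7a11 by 0.61 ± 0.16 (0.0393), and Hsp90aa1 fell by 0.54 ± 0.12 (0.0273). Tgm2, encoding transglutaminase 2, rose by 0.79 ± 0.20 (0.0349), the phagocytic receptor gene Mertk fell by 0.77 ± 0.21 (0.0466), and Keap1, the NRF2 repressor, rose by 0.42 ± 0.10 (0.0276). Among p53 targets the pro-apoptotic genes Bbc3 (0.96 ± 0.24, adjusted p = 0.0337) and Bax (0.45 ± 0.11, 0.0373) rose and Ccng1, the gene of cyclin G1, fell by 0.37 ± 0.10 (0.0423). Pdk3 fell by 0.45 ± 0.10 (0.0238). The counts were 2 rising and 1 falling of 22 other glucocorticoid-responsive genes, 0 and 1 of 11 receptor and chaperone genes, 1 and 0 of 17 zinc genes, 2 and 0 of 12 NRF2 genes, 2 and 1 of 13 p53 genes and 0 and 1 of 16 PPAR genes, where 3.67% of all tested genes rose and 2.43% fell. At an unadjusted p of 0.05, 9, 2, 4, 4, 4 and 1 passed in the same order, with 24.8% of all tested genes. Without the library labelled 5xFAD;Ulk1OV replicate 3 the 11 called genes were all called again. That fit called 19 genes of these lists, and 8.97% of all tested genes. Without Ulk1OV replicate 1 and WT replicate 3 only Ddit4 and Hsp90aa1 were called (adjusted p = 0.0496 each), with 0.976% of all tested genes.

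In the interaction, the called genes with the smallest p in each list were Tgm2 (1.29 ± 0.28, edgeR adjusted p = 0.0125), Hsp90aa1 (-0.76 ± 0.18, 0.0164), Slc39a3 (0.81 ± 0.16, 0.0091), Slc7a11 (0.99 ± 0.22, 0.0142), Bax (0.77 ± 0.16, 0.0114) and Pdk3 (-0.63 ± 0.14, 0.0146). Of the 22 other glucocorticoid-responsive genes 3 were called above 0, with Tgm2 also Ddit4 (1.18 ± 0.27, 0.0151) and Dusp1 (1.21 ± 0.31, 0.0259), and 1 below, the repressor gene Bcl6 (-0.56 ± 0.17, 0.0495). In each of the other lists 2 or fewer were called above 0 and 1 or fewer below, where 6.8% of all tested genes were called above 0 and 5.96% below. Besides those with the smallest p, these were Keap1 (0.58 ± 0.14, 0.0183), Gclc, encoding a subunit of the enzyme that starts glutathione synthesis (-0.46 ± 0.11, 0.0186), and Btg2 (1.62 ± 0.36, 0.0134). At an unadjusted p of 0.05, 9 other glucocorticoid-responsive, 3 receptor and chaperone, 2 zinc, 5 NRF2, 5 p53 and 2 PPAR genes passed. So did 29.4% of all tested genes. All 12 called genes were called without the library labelled 5xFAD;Ulk1OV replicate 3 as well. That fit called 19 genes of these lists, and 14.4% of all tested genes. Without Ulk1OV replicate 1 and WT replicate 3, 9 of the 12 were called, with 8.07% of all tested genes, and Dusp1, Bcl6 and Gclc were not. In 5xFAD;Ulk1OV against 5xFAD and in 5xFAD against WT edgeR called 0 genes of any of these lists, while at an unadjusted p of 0.05 between 1 and 4 genes of each list of 11 to 22 passed in 5xFAD;Ulk1OV against 5xFAD, with 17.4% of all tested genes, and between 0 and 3 in 5xFAD against WT, with 12.4% of all tested genes. The smallest p-values belonged to Gpd1 (0.38 ± 0.12, adjusted p = 0.144), Fkbp4 (0.41 ± 0.12, 0.118), Slc30a4 (-0.31 ± 0.08, 0.0995), Gclc (-0.25 ± 0.08, 0.132), Bax (0.45 ± 0.11, 0.0977) and Pdk3 (-0.38 ± 0.10, 0.0992) for 5xFAD;Ulk1OV against 5xFAD. For 5xFAD against WT they belonged to Dusp1 (-0.77 ± 0.22, 0.248), Hsp90aa1 (0.22 ± 0.12, 0.494), Slc30a4 (0.22 ± 0.08, 0.303), Gclc (0.25 ± 0.08, 0.253), Btg2 (-0.95 ± 0.25, 0.233) and Plin3 (-0.42 ± 0.19, 0.390).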

How the data were processed

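RNA of mouse hippocampus was sequenced in 12 libraries, put by the labels into 4 groups of 3. The values used are whole read counts per gene as deposited, with no scaling by the authors. The submitters' processing notes name mm10, featureCounts, HISAT2, SAMtools, Trim Galore, FastQC and DESeq2, with no settings. Annotation and use of strand are not stated there or in the labels. Of 54427 genes in the table, 22784 had no count in any library. Totals of 16149992 to 18547132 counts set the precision. Libraries of 1 group differed by more than sampling noise, so none was treated as a duplicate.

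The quasi-likelihood test of edgeR 4.0.16 (R 4.3.3) used all 12 libraries, each group with a mean of its own, after filterByExpr (17227 genes left) and TMM scaling. The 4 comparisons of groups and their interaction were contrasts, adjusted by Benjamini-Hochberg over all tested genes, and "called" means an adjusted p under 0.05. Standard errors were taken as |log2 fold change| over the root of F. CPM use TMM-scaled totals, RPKM also the exonic length in GENCODE M21, and correlations log2 CPM with a prior count of 2. Start sites and the 250 bases before them come from RefSeq (GRCm38.p6), which held 9 of the 10 genes with 17 start sites.

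The 10 genes, and the gene and marker lists, were chosen with earlier results of these data known. All 10 were named in every comparison. From each list up to 4 called genes with the smallest p were named, or where none was called the gene with the smallest p, and for each of the 10 genes those most correlated with it. Alternatives were DESeq2 1.42.0, its size factors, no filter, a replicate block, fits to 6 libraries and fits without each library. Removing trends over GC content and length (known for 17111 tested genes), 2 fits without a pair of libraries, and fits of the other gene lists without doubted libraries, were chosen after seeing the data.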

Additional observations from a re-analysis of the deposited data

Results flagged for a closer look

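Mt1 was singled out because its change with the Ulk1OV label differed between the WT and 5xFAD backgrounds. This difference was -1.03 ± 0.22 on the log2 scale in the test of the interaction (edgeR adjusted p = 0.0124). Its log2 difference was -0.35 ± 0.16 for 5xFAD;Ulk1OV against 5xFAD and 0.68 ± 0.16 for Ulk1OV against WT. In the same test 12.8% of all tested genes were called, and 5 of 8 meningeal fibroblast and 4 of 10 endothelial markers were called above 0.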

How the results depend on the processing

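Among the 10 genes, the number called was 0 in 5xFAD;Ulk1OV against 5xFAD and in 5xFAD against WT under every alternative but 1. Without a filter on low counts, edgeR called 1 gene in each of these (Sgk1 and Mt1) and 7 in each of the other 3 tests (Mt1, Mt3, Fkbp5, Tsc22d3, Plin4, Cdkn1a and Zbtb16), and the cause was not tested. In Ulk1OV against WT the 2 calls became 3 with only the 6 libraries of the comparison. In 5xFAD;Ulk1OV against Ulk1OV the 1 call became 2 with DESeq2, with the replicate block and with trends in GC content and length removed (Mt1 and Mt3), and 0 with only the 6 libraries. The interaction's 1 call became 2 under the same 3 settings. With trends in GC content and length removed, calls over all tested genes dropped in these 3 tests. They went from 891 to 441 in Ulk1OV against WT and from 1051 to 307 in 5xFAD;Ulk1OV against Ulk1OV. In the interaction they went from 2197 to 766. Fits without 1 library gave 0 to 3 calls in Ulk1OV against WT, 0 to 3 in 5xFAD;Ulk1OV against Ulk1OV and 1 to 3 in the interaction. Leaving out WT replicate 3 together with the library labelled 5xFAD;Ulk1OV replicate 3, these counts were 4, 4 and 5, and without Ulk1OV replicate 1 and WT replicate 3 they were 2, 2 and 2. Signs that turned were all of genes not called. Over these fits without 1 or 2 libraries the log2 values in 5xFAD;Ulk1OV against 5xFAD ranged as follows where the sign turned: Tsc22d3 -0.53 to 0.11, Cdkn1a -0.58 to 0.52, Zbtb16 -0.44 to 0.27, Fkbp5 -0.18 to 0.42 and Plin4 -0.98 to 1.07. In Ulk1OV against WT the ranges were Mt2 -0.29 to 0.094, Pdk4 -0.22 to 0.48 and Sgk1 -0.47 to 0.58. In 5xFAD;Ulk1OV against Ulk1OV the ranges were Sgk1 -0.35 to 0.16 and Pdk4 -0.14 to 0.039. In 5xFAD against WT the ranges were Fkbp5 -0.24 to 0.35, Tsc22d3 -0.052 to 0.57, Pdk4 -0.099 to 0.56, Plin4 -0.35 to 1.38, Cdkn1a -0.32 to 0.78, Zbtb16 -0.25 to 0.33 and Sgk1 -0.024 to 1.03. In the interaction of 5xFAD and Ulk1OV Pdk4 ranged between -0.66 and 0.040. With the GC and length trends removed, Mt3 was at -0.11 in 5xFAD;Ulk1OV against 5xFAD, Mt2 at 0.087 in Ulk1OV against WT, and Mt2, Sgk1 and Pdk4 at -0.084, 0.021 and 0.0035 in 5xFAD;Ulk1OV against Ulk1OV. With the replicate block, Sgk1 and Pdk4 were at 0.042 and 0.015 in Ulk1OV against WT. Libraries with the same replicate number did not deviate together (r of deviations -0.18 to 0.22), so the number is not taken to pair them. Depth limits Mt2 most, at 14 to 34 counts.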
